A study of Mus musculus with 8 samples.

Results

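Vmn1r32 to Vmn1r39 are 8 vomeronasal type 1 receptor (V1R) genes that follow one another on mouse chromosome 6. They were taken from a table of 27532 genes, measured in the vomeronasal organ of adult mice, by name: every row called Vmn1r plus a whole number from 32 to 39. The run was selected on measured values, its share of all V1R expression in heterozygous and knockout libraries of this same table, so genotype values of the members are given below as a description, with no test. The series compared 4 heterozygous mice (Tex15HET, here HET1 to HET4) with 4 knockout mice (Tex15KO, here KO1 to KO4), and no wild-type animal was analysed here. HET1 was a male of 11.4 weeks, HET2 a female of 14.6 weeks, and HET3 and HET4 females of 11.9 weeks. KO1 was a female of 11.9 weeks, KO2 and KO3 were males of 11.9 weeks, and KO4 was a male of 12.1 weeks. The labels give no strain and do not describe the allele. All animals carry at least 1 disrupted copy of Tex15 by their labels, the heterozygous controls included.

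V1R proteins are G protein-coupled receptors of the sensory neurons in the apical layer of the vomeronasal epithelium, where they detect small-molecule cues of other animals and signal through the G protein subunit encoded by Gnai2. Each neuron expresses 1 or very few of the many V1R genes, and the genes lie in clusters of similar copies. In whole tissue, the level of a receptor gene therefore depends on how many neurons express it and on how much RNA each of them holds, and these cannot be told apart here. Tex15, the gene targeted in the series, is known for its role in silencing transposons in male germ cells. Which ligand each of the 8 receptors detects is not given in the sources used here.

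In the GENCODE M21 annotation (mouse build GRCm38), the 8 genes span 258.4 kb of chromosome 6. Vmn1r32 lies at chr6:66552180-66560096, Vmn1r33 at chr6:66610543-66618282, Vmn1r34 at chr6:66635936-66643879 and Vmn1r35 at chr6:66678070-66685906. Vmn1r36 lies at chr6:66715257-66719168, Vmn1r37 at chr6:66729382-66733039, Vmn1r38 at chr6:66774003-66782627 and Vmn1r39 at chr6:66803297-66810609. All are annotated as protein coding with 1 coding exon, and 7 are on the minus strand. Vmn1r37, on the plus strand, is the exception. In RefSeq, 6 members carry older names of the V1rc group, from V1rc10 for Vmn1r37 to V1rc15 for Vmn1r32. The V1R genes numbered next to the run are far from it on the same chromosome: the block of Vmn1r4 to Vmn1r31 is 8.08 Mb away on one side, and that of Vmn1r40 to Vmn1r54 is 22.9 Mb away on the other.

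The coding sequences show how alike the 8 receptors are. The first 90 coding bases of each (GENCODE M21 transcripts, sense strand, 5′ to 3′, starting at the start codon) are given below in lower case, with capitals where a base differs from Vmn1r35, the member with the highest knockout level. They are shown because the ability to assign reads to one member rests on such differences.
Vmn1r32: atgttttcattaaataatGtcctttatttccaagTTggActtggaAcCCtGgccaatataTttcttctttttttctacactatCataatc
Vmn1r33: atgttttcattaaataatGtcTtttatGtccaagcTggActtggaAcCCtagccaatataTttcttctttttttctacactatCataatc
Vmn1r34: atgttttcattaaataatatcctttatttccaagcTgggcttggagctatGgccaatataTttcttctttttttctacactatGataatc
Vmn1r35: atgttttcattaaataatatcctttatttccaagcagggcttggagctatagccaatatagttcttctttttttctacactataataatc
Vmn1r36: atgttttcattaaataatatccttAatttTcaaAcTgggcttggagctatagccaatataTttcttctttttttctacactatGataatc
Vmn1r37: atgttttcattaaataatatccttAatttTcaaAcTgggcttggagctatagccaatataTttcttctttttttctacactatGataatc
Vmn1r38: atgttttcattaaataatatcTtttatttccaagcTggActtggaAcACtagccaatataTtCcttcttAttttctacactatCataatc
Vmn1r39: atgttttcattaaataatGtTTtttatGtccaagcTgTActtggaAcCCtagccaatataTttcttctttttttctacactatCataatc
Over these 90 bases the other members differed from Vmn1r35 at 4 bases (Vmn1r34) to 12 bases (Vmn1r39). Vmn1r36 and Vmn1r37 were identical to each other in this stretch. Over the whole coding sequence, of 888 to 927 bases, the most alike of the 28 pairs was Vmn1r36 and Vmn1r37, with 97.9% identical aligned bases, and the least alike was Vmn1r35 and Vmn1r39 with 84.9%. Vmn1r35 was itself next closest to Vmn1r37, at 94.0%, and to Vmn1r36, at 92.5%. Vmn1r33, Vmn1r38 and Vmn1r39 formed a group at 90.8% to 91.6%. For all 8 genes the closest V1R coding sequence was that of another member, and the closest one outside the run was 81.0% to 86.8% identical.

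**Figure D1:**
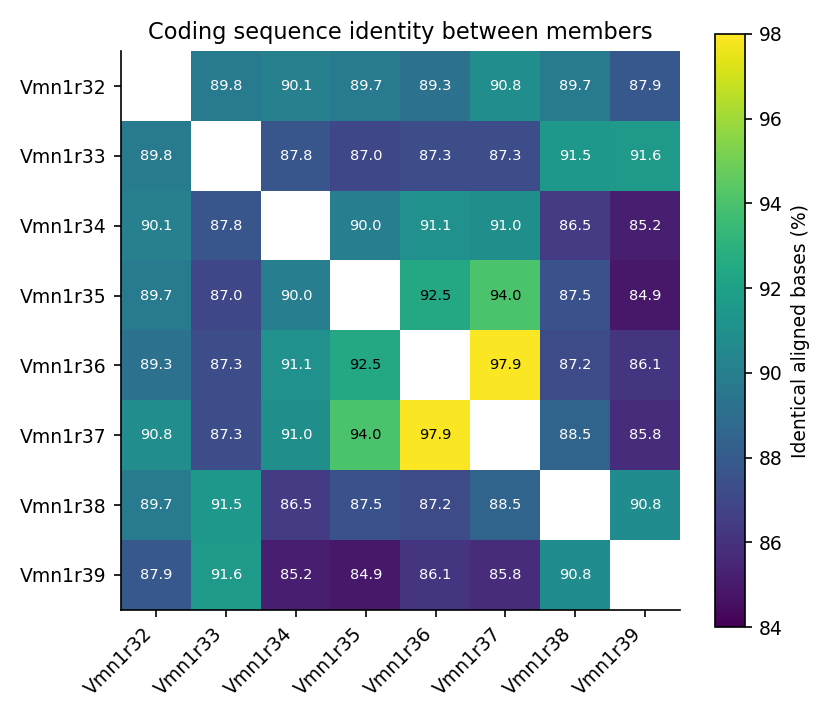
Identity of coding sequence between each pair of members, as the percentage of aligned bases that are identical (GENCODE M21, GRCm38). The brightest cell is Vmn1r36 with Vmn1r37, at 97.9%, and both are closer to Vmn1r35 than to Vmn1r39.

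Reads can still be told apart for most of the run. Of all 150-base windows in a gene's transcripts, 100% matched no other annotated gene in Vmn1r32, Vmn1r33, Vmn1r34, Vmn1r38 and Vmn1r39, and 99.2% in Vmn1r35, where 21 windows also occur in Vmn1r11. In Vmn1r36 and Vmn1r37 the figures were 83.1% and 81.6%, and 350 windows were common to both. How the deposited values treat reads that fit both genes is not given in the sources used here, so the split between Vmn1r36 and Vmn1r37 is uncertain.

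Values are TPM (transcript abundances corrected for length and scaled to a sum of 1000000 per library) as deposited. Depth, recovered from the steps between low values, was 17884965 to 26416395 reads per library. KO1 was the shallowest library, with 2988 genes at a value of 0, where the remaining libraries had 1287 to 1808. The level of Tex15 was between 2.27 and 2.81 TPM in the 4 heterozygotes and between 0.870 and 1.23 TPM in the 4 knockouts, without overlap. HET1 stood apart in Omp, a protein of mature sensory neurons, with 66.7 TPM against 571 to 943 TPM in the other 7 libraries. HET2 had the highest summed level of the main olfactory neuron markers Gnal, Adcy3 and Cnga2, at 53.8 TPM. Gnai2, which marks the apical neurons, was at 114 to 302 TPM in the heterozygotes and 199 to 292 TPM in the knockouts. Gnao1, which marks the basal neurons that use another receptor family, was at 11.5 to 30.7 and 16.8 to 24.2 TPM. Both overlapped between the genotypes. HET1 and HET2 carry lower animal numbers in their titles than the other 6 animals, whose numbers are close together. No label says what these numbers mark, and neither low-numbered animal is a knockout.

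Together the 8 genes made up a larger part of V1R expression in knockout tissue. The run held 11.9% of the TPM of all 207 V1R genes in HET1, 17.6% in HET2, 15.7% in HET3 and 18.1% in HET4. It held 28.7% in KO1, 33.6% in KO2, 33.7% in KO3 and 28.7% in KO4. Every knockout library lay above every heterozygous one, and the lowest heterozygous value was that of the male HET1. The means were 15.8% ± 2.82 and 31.2% ± 2.85 (SD, n = 4), a difference of 15.3 percentage points and a ratio of 1.97. Within the 6 animals with higher numbers the difference was 14.2 points, and without HET1 it was 14.02. As a share of recovered reads in place of TPM, which gives long transcripts more weight, the run held 9.06% and 17.9%, again with a ratio near 1.98. The share is not carried by the most abundant member: without Vmn1r35, the run held 7.36% to 12.8% in heterozygous and 17.6% to 21.8% in knockout libraries.

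**Figure D2:**
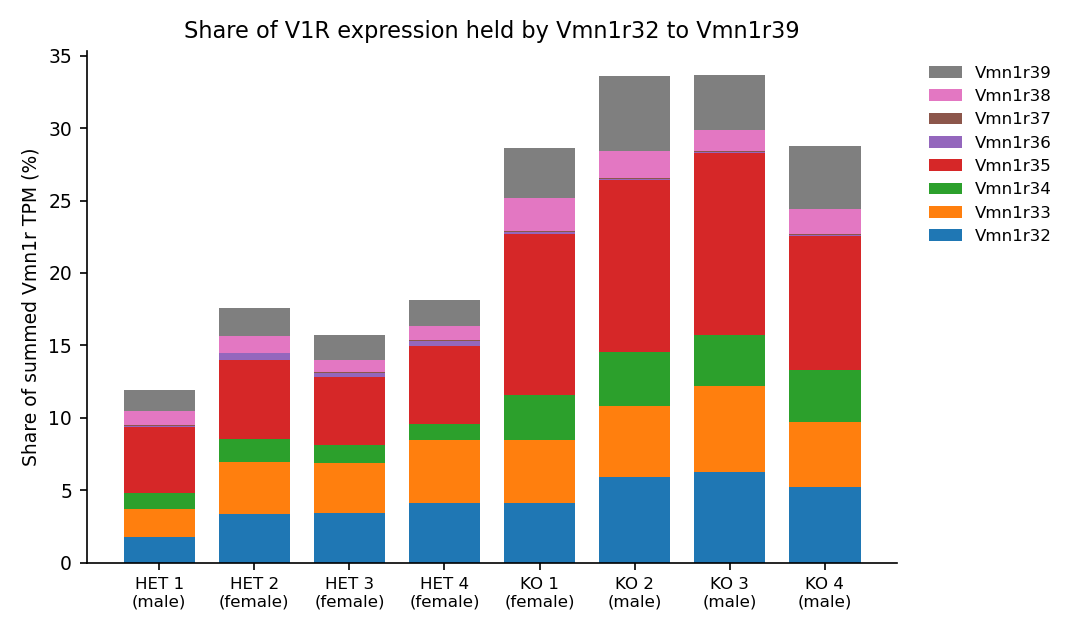
Share of the summed TPM of all V1R genes (vertical axis, percent) held by each member in each library, stacked from Vmn1r32 at the bottom to Vmn1r39 at the top. The 4 knockout bars reach 28.7% to 33.7% and the 4 heterozygous bars 11.9% to 18.1%.

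In level the groups were less clearly separated than in share. The summed level of the run was 61.0 TPM in HET1, 54.6 in HET2, 147.5 in HET3 and 125.3 in HET4, against 109.8 in KO1, 214.6 in KO2, 240.5 in KO3 and 224.2 in KO4. KO1 lay below HET3 and HET4, so the groups overlapped (97.1 ± 46.4 and 197 ± 59.3 TPM). The difference in log2 of the summed TPM was 1.09, with a spread within groups of 0.63. It was 0.90 after median-ratio scaling and 0.47 within the 6 animals with higher numbers. The other 199 V1R genes summed to 516 ± 223 TPM in the heterozygotes and 432 ± 119 TPM in the knockouts, and all V1R genes to 613 ± 267 and 629 ± 174 TPM. Relative to Gnai2, the run stood at 0.448 ± 0.0672 and 0.790 ± 0.184 (ratio of TPM), without overlap, the lowest knockout ratio being 0.551 in KO1 and the highest heterozygous one 0.489 in HET3.

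Vmn1r35 was the most abundant V1R gene in 7 of 8 libraries and ranked second in KO1. Its TPM was 23.3, 16.9, 44.3 and 37.1 in HET1 to HET4 and 42.5, 75.7, 89.3 and 72.2 in KO1 to KO4. The levels overlapped through KO1, which lay just below HET3. Its share of V1R TPM was 4.55%, 5.46%, 4.72% and 5.37% in HET1 to HET4 and 11.1%, 11.9%, 12.5% and 9.25% in KO1 to KO4. In share the groups were well apart, at 5.02% ± 0.458 and 11.2% ± 1.41, a ratio of 2.23.

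Vmn1r34 showed the largest ratio of shares in the run. It was at 5.65, 4.89, 11.1 and 7.75 TPM in HET1 to HET4 and at 12.0, 23.8, 25.1 and 28.1 TPM in KO1 to KO4. Every knockout level was above every heterozygous level, although KO1 exceeded HET3 by less than 1 TPM. Its share was 1.25% ± 0.223 in heterozygous and 3.49% ± 0.259 in knockout libraries, a ratio of 2.81, and its rank among the 207 V1R genes by mean share moved from 18 to 9. Vmn1r34 was also the one member with a clearly larger part of the run itself in the knockout: it held 7.98% ± 1.42 of the run's TPM in heterozygous libraries and between 10.4% and 12.5% in each knockout library, without overlap.

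Vmn1r39, at the far end of the run, was at 7.19, 5.97, 16.4 and 12.7 TPM in HET1 to HET4 and at 13.4, 33.4, 27.0 and 33.8 TPM in KO1 to KO4. The levels overlapped through KO1, which lay below HET3. Its share was 1.40% to 1.92% in heterozygous and 3.499% to 5.235% in knockout libraries, a ratio of 2.44. In rank it moved from 12 to 8.

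Vmn1r38 was at 5.13, 3.66, 7.97 and 6.45 TPM in HET1 to HET4 and at 8.62, 11.9, 10.4 and 13.3 TPM in KO1 to KO4. The groups did not overlap in level, and KO1 was the lowest knockout library. In share KO1 was instead the highest, at 2.25%, with 1.45% to 1.87% in KO2 to KO4 and 0.850% to 1.18% in heterozygous libraries. The ratio of the mean shares was 1.84, and the rank moved from 25 to 10.

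Vmn1r32 and Vmn1r33 lie next to each other and were nearly equal in level. Vmn1r32 was at 9.16, 10.5, 31.96 and 28.27 TPM in HET1 to HET4 and at 15.9, 38.0, 44.8 and 41.0 TPM in KO1 to KO4. Vmn1r33 was at 9.92, 11.1, 32.90 and 30.01 TPM in HET1 to HET4 and at 16.6, 31.2, 42.7 and 34.5 TPM in KO1 to KO4. In both genes HET1 and HET2 were the lowest libraries, KO1 lay below HET3 and HET4, and KO3 was the highest. The ratio of Vmn1r32 to Vmn1r33 was 0.924 to 0.971 in heterozygous libraries and 0.957 to 1.22 in knockout libraries. As a share of V1R TPM, Vmn1r32 stood at 3.17% ± 0.978 and 5.40% ± 0.937, apart by a small margin between HET4 (4.09%) and KO1 (4.15%). Vmn1r33 stood at 3.34% ± 1.01 and 4.91% ± 0.750, with HET4 (4.35%) above KO1 (4.33%). These were the smallest ratios among the members whose share was larger in the knockout, at 1.70 and 1.47.

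**Figure D3:**
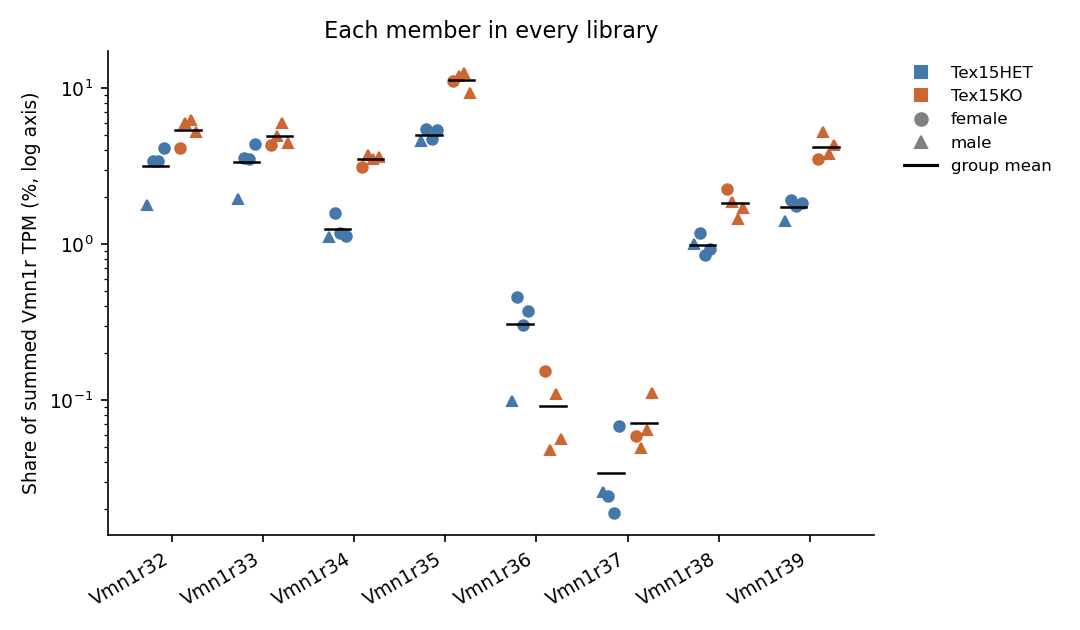
Share of the summed V1R TPM (percent, log axis) of each member in each library. Circles are females, triangles males, and bars group means (n = 4). The knockout points lie above the heterozygous ones without overlap for Vmn1r32, Vmn1r34, Vmn1r35, Vmn1r38 and Vmn1r39, and Vmn1r36 lies lower on average in the knockout.

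Vmn1r36 was the single member with a lower mean in the knockout. Its TPM was 0.508, 1.41, 2.83 and 2.57 in HET1 to HET4, from 16, 39, 50 and 57 reads. It was 0.591, 0.304, 0.783 and 0.439 in KO1 to KO4, from 11, 7, 16 and 9 reads. HET1 lay among the knockout libraries. Its share of V1R TPM was 0.0992%, 0.455%, 0.302% and 0.373% in HET1 to HET4 and 0.154%, 0.0476%, 0.110% and 0.0563% in KO1 to KO4, a ratio of the means of 0.299. Among males, HET1 lay within the range of KO2 to KO4, while among females KO1 lay below HET2 to HET4. As a part of the run's own TPM it was 0.833% to 2.59% in heterozygous and 0.142% to 0.538% in knockout libraries, without overlap.

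Vmn1r37, the plus-strand gene whose coding sequence is nearly that of Vmn1r36, had few reads. It was at 0.133, 0.0756, 0.177 and 0.471 TPM in HET1 to HET4 and at 0.224, 0.317, 0.460 and 0.865 TPM in KO1 to KO4, which is 2 to 10 and 4 to 17 reads per library. The groups overlapped in level and in share, and the gene fell under the minimum of 0.5 TPM on average and was not fitted. The ratio of Vmn1r36 to Vmn1r37 was 3.83 to 18.7 in heterozygous and 0.507 to 2.64 in knockout libraries, without overlap, in the pair where reads are least certain. The 2 genes closest in sequence to Vmn1r35 were thus the lowest of the run, while Vmn1r35 was the highest.

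The order of levels within the run was nearly the same in both genotypes. In heterozygous libraries it was Vmn1r35, Vmn1r33, Vmn1r32, Vmn1r39, Vmn1r34, Vmn1r38, Vmn1r36 and Vmn1r37, from high to low, and each neighbour in this order was higher in all 4 libraries by more than 1 SD of the log2 ratio. In knockout libraries Vmn1r32 and Vmn1r33 changed places, and the pairs Vmn1r32 and Vmn1r33, Vmn1r33 and Vmn1r39, and Vmn1r36 and Vmn1r37 did not differ beyond their spread. The effective number of members among which the run's TPM was spread (the exponential of the Shannon entropy) was 5.52 ± 0.157 and 5.32 ± 0.164. Of the 10 highest V1R genes in a library, 3 were members in every heterozygous library, 6 in KO1 and KO2 and 5 in KO3 and KO4.

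**Figure D4:**
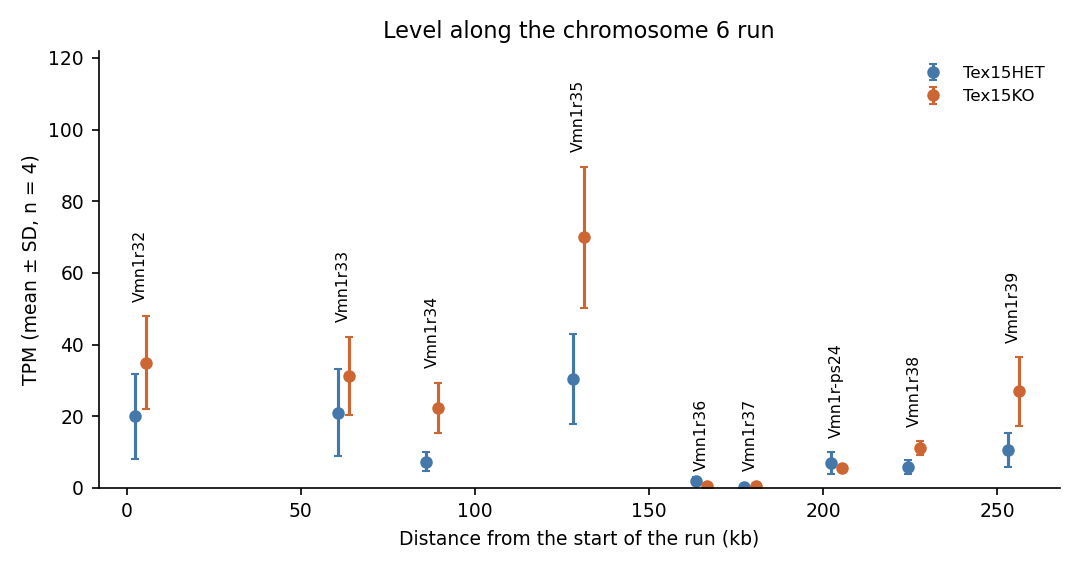
Level (TPM, mean ± SD, n = 4) of each member and of the pseudogene Vmn1r-ps24 against the distance of the gene's midpoint from the start of the run in kb; points of the 2 genotypes are set slightly apart. The knockout mean is higher for 7 members and lower for Vmn1r36 and Vmn1r-ps24, which lie between members with higher knockout means.

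Location along the run did not order the values. Vmn1r36 and Vmn1r37 lie between Vmn1r35 and Vmn1r38, whose shares were 2.23 and 1.84 times as large in the knockout. The pseudogene Vmn1r-ps24, which lies between Vmn1r37 and Vmn1r38, was at 4.87, 3.77, 10.2 and 8.83 TPM in HET1 to HET4 and at 4.83, 6.34, 5.26 and 5.97 TPM in KO1 to KO4. Its groups overlapped. Within 500 kb of the run, the annotation holds 29 genes that are not members, of which 11 reached 0.5 TPM on average. In limma, 0 of these 11 were called for genotype (adjusted p under 0.05), against 0.586% of all fitted genes. Their differences ran from −0.33 (E230016M11Rik) to 0.71 (Gm31520) in log2 relative to the median gene, with a median of 0.01.

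In the fit over the 20305 genes that averaged 0.5 TPM or more (limma on log2(TPM + 0.5), genotype and sex as terms), 0 of the 7 fitted members were called for genotype, against 0.586% of all genes. At an unadjusted p under 0.05 there were 4 of 7 members and 630 of all 20305 genes, and limma-voom on recovered reads also called 0 members. These p-values and calls test the uncentred difference against 0, not against the median gene, whose own difference was 0.19. The rule used this contrast, so these counts are no test of the members and nothing is read from them, nor from calls under other settings. The fitted differences, knockout minus heterozygous in log2 relative to the median gene, were 1.17 (SE 0.41) for Vmn1r34, 0.98 (SE 0.43) for Vmn1r39 and 0.91 (SE 0.39) for Vmn1r35. They were 0.66 (SE 0.49) for Vmn1r32, 0.64 (SE 0.39) for Vmn1r38, 0.50 (SE 0.47) for Vmn1r33 and −0.86 (SE 0.43) for Vmn1r36. In this fit HET1 and KO1 each carry a weight of 0.5 and the other libraries 0.167, because 1 heterozygous animal is male and 1 knockout animal female. Without HET1, the values of Vmn1r32 and Vmn1r33 turned to −0.34 each, and those of Vmn1r34, Vmn1r35 and Vmn1r39 were 0.71, 0.55 and 0.37. Over all settings run, the differences spanned 0.71 to 1.62 for Vmn1r34, 0.55 to 1.27 for Vmn1r35, 0.37 to 1.58 for Vmn1r39, 0.56 to 0.77 for Vmn1r38 and −1.47 to −0.49 for Vmn1r36. For Vmn1r32 they spanned −0.34 to 1.65, and for Vmn1r33 −0.34 to 1.34. The upper ends for Vmn1r34, Vmn1r35, Vmn1r39 and Vmn1r36 were those without KO1. Without the sex term, or without HET3, Vmn1r34 was called, and among the 6 animals with higher numbers, without the sex term, Vmn1r36 was called as lower. The same 3 fits called 132, 163 and 183 of all 20305 genes, 151 of the 183 lower.

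Against the rest of the V1R family the run stood on the side that gained share. The median difference relative to the median gene was 0.66 over the 7 fitted members and −1.001 over the 136 other fitted V1R genes, of which 27 lay above the median gene. Without KO1 the median of the members was 1.34. It was 0.37 without HET1. Shares of V1R TPM did not overlap and were higher in the knockout for 5 of the 7 fitted members, against 16.8% of the 143 fitted V1R genes, members included. They were lower without overlap for 0 of 7, against 53.1% of those 143. In TPM itself, the groups lay apart with the knockout higher for 2 of 7, Vmn1r34 and Vmn1r38, against 0.473% of all fitted genes. These counts come from the contrast that chose the run and are no test of it.

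Among all 207 V1R genes, 52 had a larger mean share in the knockout and 155 a smaller one, and 7 of the 8 members were among the 52. The gains of the 52 summed to 35.9 percentage points. The run's net gain of 15.3 points included the loss in Vmn1r36, and the gaining members held 43.3% of the summed gains. On the same chromosome, Vmn1r4 to Vmn1r31 went from 10.6% ± 0.448 to 18.1% ± 1.82 of V1R TPM. Most of that lay in the single gene Vmn1r27, at 3.63% ± 0.491 and 10.2% ± 1.56, and without it the block stood at 6.94% ± 0.585 and 7.90% ± 0.417, with overlap. Vmn1r40 to Vmn1r54 stood at 8.79% ± 0.905 and 3.89% ± 0.261. In Vmn1r32 to Vmn1r39, Vmn1r35 alone gained 6.15 points, and Vmn1r37 gained 0.0365 points with overlapping groups.

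**Figure D5:**
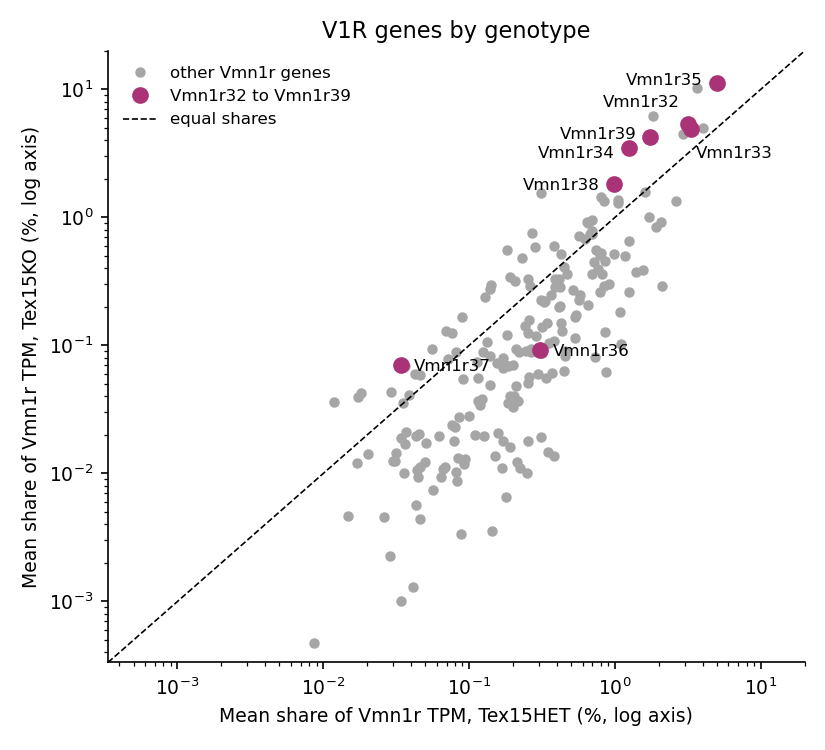
Mean share of V1R TPM in heterozygous (horizontal) and knockout (vertical) libraries for the 203 V1R genes with a value above 0 in both groups (percent, log axes, n = 4 each); 4 genes at 0 in a group are not drawn. Of the 8 members, 7 lie above the dashed line of equal shares and Vmn1r36 lies below it.

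Sex was not used to choose the members and could be tested. In the same limma fit, 0 of 7 members were called for sex, against 0.0492% of all genes. At an unadjusted p under 0.05 there were 0 of 7 members and 460 of all 20305 genes. Limma-voom also called 0. The smallest unadjusted p was 0.0837, for Vmn1r36, with an uncentred difference of −0.78 in log2 (male minus female, SE 0.43; −0.70 relative to the median gene) and a limma adjusted p of 1. The median over the members was 0.22, and the groups of 1 male against 3 females and 3 males against 1 female leave wide errors (SE 0.39 to 0.49). That median was −0.20 without KO1 and 0.88 without HET1, so its sign and size rest on those libraries. For the share of the whole run, the heterozygous male stood at 11.9% and the heterozygous females at 17.2% on average, while the knockout female stood at 28.7% and the knockout males at 32.01%. The mean of the within-genotype differences was −0.95 points (exact permutation p = 0.75 over 16 assignments, two-sided, where 0.0625 is the smallest p possible). The sign turned without HET1, to 3.35 points, and without KO1 the difference was −5.25 points.

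Members did not all vary together between animals of a genotype. After group means were removed, log2 shares of V1R TPM of Vmn1r32 and Vmn1r33 were correlated with r = 0.96 over the 8 libraries, the highest of the fitted pairs, followed by Vmn1r32 and Vmn1r39 with r = 0.70 and Vmn1r33 and Vmn1r36 with r = 0.69. Vmn1r32 and Vmn1r38 gave the lowest value, r = −0.38. These are descriptions of 8 libraries that share the V1R total as denominator. Outside the run, the genes with the pattern most like its summed TPM over the 8 libraries (Pearson r of log2 values) were Vmn1r223 on chromosome 13, the pseudogene Atg4a-ps on chromosome 3 and Vmn1r71 on chromosome 7, each with r = 0.98. Without the 2 libraries farthest from the median, r was 0.97, 0.92 and 0.93. Vmn1r4 on chromosome 6 followed with r = 0.97. Vmn1r71 was at 12.5 ± 9.52 TPM in the heterozygotes and 40.1 ± 16.9 TPM in the knockouts, while Vmn1r223, at 1.14 and 2.12 TPM, and Vmn1r4, at 1.46 and 2.02 TPM, were low throughout.

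Genes that serve sensory neurons in general were examined in the same fit. Of a list of 15 genes for signalling and maturity of vomeronasal and olfactory neurons, 14 were analysed here, without Trpc2. Of these, 0 were called for genotype (1 at an unadjusted p under 0.05, median −0.13 in log2 relative to the median gene). The extremes were Gng13, a G protein subunit, at −0.71 and Omp at 1.27, the gene in which HET1 stood apart. Of 10 genes that mark the apical or basal neuron type, 9 were fitted and 0 called, with 0 at an unadjusted p under 0.05 and a median of 0.05. Of 14 genes for receptor choice and nuclear organisation, which include Lhx2, Ebf1 and Lbr, 14 were fitted and 0 called, with 0 at an unadjusted p under 0.05, a median of −0.08 and a range from −0.49 (Ebf4) to 0.16 (Ldb1). Over all 20305 fitted genes, 0.586% were called and 630 were at an unadjusted p under 0.05. Few or none are therefore expected in lists this short, and the counts do not show that these genes are unchanged. Summed markers of main olfactory neurons, glands, immune cells, red blood cells and ciliated cells (Foxj1 with Tuba1a) overlapped between the genotypes. For main olfactory neurons the overlap was narrow, with 15.6 to 53.8 TPM in heterozygous and 10.4 to 17.9 TPM in knockout libraries. The part of these cell types in the run's values was not tested.

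RefSeq lists start sites for 7 of the 8 members (GRCm38.p6), and windows from 250 bases before to 50 after the start were searched on both strands. In 6 of the 7 the listed start is the start codon, so these windows lie inside the gene of the longer GENCODE models. The letters CCCNNGGG, the core bound by Ebf factors, occurred in 0 of 7 windows, against 0.488% of 205 V1R windows and 13.7% of windows of all genes. The homeodomain core TAATTA occurred in 1 of 7, that of Vmn1r32, against 7.32% and 5.29%. CG was present in 4 of 7 windows (57.1%), against 78.5% of V1R windows and 94.6% of windows of all genes, and the median per window was 1, 1 and 7. No match says only that these letters are not in these windows.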

How the data were processed

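Bulk polyadenylated RNA of 8 vomeronasal organs was sequenced as directional paired reads of 150 bases, per the labels' protocols. The authors deposited TPM values per gene and library, not pooled, and 0 sample columns were left unused. The submitters' processing notes name Trim Galore 0.6.5, cutadapt 5.1, STAR 2.7.11b and deepTools 3.5.5 and the builds mm10 and GRCm38; the counting program, its treatment of reads that fit several genes and any filter are not given in the sources used here. TPM depends on the transcript length used, so shares were repeated on reads.

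Reads were recovered by multiplying the deposited TPM by the exon length in GENCODE M21 (known for 97.1% of genes); 98.0% to 98.6% of values worth under 10 reads were whole within 0.1. The 20305 genes averaging 0.5 TPM or more were fitted as log2(TPM + 0.5) with limma 3.58.1 (R 4.3.3; lmFit, eBayes with trend; genotype and sex), with Benjamini-Hochberg adjustment over all of them and a threshold of 0.05. These fold changes understate differences of low genes. The median gene differed by 0.19 in log2 by genotype (−0.01 after median-ratio scaling), so printed differences are relative to it unless stated, while p-values and calls test the uncentred coefficients against 0. The fit was tested on simulated data. Changes were placed there only in genes of higher level than Vmn1r36, and no library was made to stand apart. P-values measure the spread between these animals. For scale, 3 reads of a gene with 2 kb of exons are worth 0.0916 to 0.163 TPM.

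Members, lists and alternatives were chosen with earlier results of these data known. Named genes were the 8 members, Tex15, the 3 V1R genes and 3 genes of any kind most correlated with the run's summed TPM, called list genes, and Gnai2 and Gnao1. Omp, genes at the ends of a range, Vmn1r-ps24 and Vmn1r27 were named after their values were seen. Coding identity came from global alignment (Biopython 1.88), used in place of protein identity; promoter windows were searched for motifs and not printed, since they overlap transcribed first exons or coding starts. Alternatives were other pseudocounts, filters, scalings, denominators and designs, limma-voom on recovered reads, and leaving out each library.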

Additional observations from a re-analysis of the deposited data

Results flagged for a closer look

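Of 104 groups of 4 libraries screened for a value far from the other 3, 6 were found, where chance gives about 1 in 20. HET1 stood apart in 3 of them: Vmn1r35 made up 38.2% of the run's TPM there against 29.60% to 31.02% in HET2 to HET4, the ratio of Vmn1r35 to Vmn1r36 was 45.8 against 12.0 to 15.6, and the ratio of the run to Gnai2 was 0.348 against 0.475 to 0.489. In KO1, Vmn1r32 had 436 recovered reads against 1238 to 1347 in KO2 to KO4. In TPM, which is scaled to the same sum in each library, it was also lower there, at 15.9 against 38.0 to 44.8. The cause was not tested. In HET2, Vmn1r34 held 1.58% of V1R TPM against 1.10% to 1.18% in the other heterozygous libraries. In HET4, Vmn1r37 held 0.0682% of V1R TPM against 0.0189% to 0.0259%, from 10 reads.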

How the results depend on the processing

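The difference in the run's share of V1R TPM (15.3 points) kept its direction under every alternative run. It was 26.6 points as a ratio to the other V1R genes, which is larger by construction, and 14.02 to 16.17 with 1 library left out. As a share of recovered reads, which is not corrected for exon length, it was 8.84 points, with lower means in both groups (9.06% and 17.9%). The summed level differed by 0.86 to 1.35 in log2 with 1 library left out. The count of members called for genotype was 0, and 1 without the sex term (Vmn1r34), among the 6 animals with higher numbers without the sex term (Vmn1r36), and without HET3 (Vmn1r34), a range of 0 to 1 over the libraries left out. Over all 20305 genes these 3 fits called 132, 183 and 163. The cause was not tested, and the members were chosen on this contrast. The median genotype difference of the members was 0.37 to 1.34 with 1 library left out, 1.34 without KO1. The median sex difference was −0.20 to 0.88, with −0.20 without KO1 and 0.88 without HET1, and members called for sex stayed at 0. The sex difference of the run's share was −5.25 to 3.35 points, with 3.35 without HET1. With library number as a replicate block, 0 members were called, the median was 0.66, and 128 genes were called over all, against 119 without it; libraries with the same number had correlations of their deviations of −0.06 to 0.10, so the numbers are not taken to pair the samples. Depth limits Vmn1r36 and Vmn1r37, with at most 57 and 17 reads per library.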
